A study of Mus musculus with 2 samples.

Results

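The regions described here are the promoter peaks that an antibody against Rac1 gave in both of the libraries examined, one from retina with chronic ocular hypertension (COH) and one from untreated control retina. A peak was taken as shared when it was annotated to a promoter in one list and overlapped any peak of the other list by at least 1 bp. By this rule 491 of the 694 promoter peaks of COH retina were shared (70.7%, exact 95% interval 67.2 to 74.1), against 510 of the 1445 promoter peaks of control retina (35.3%, 32.8 to 37.8). They made up 28.7% of the 1711 peaks of the COH list and 16.6% of the 3078 peaks of the control list. Overlapping peaks formed 532 pairs, which are the unit of most values below. The overlap was itself read from the measured peaks, so membership, and the strength and number of peaks that go with it, are described without a test.

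Both libraries were made by CUT&Tag. Here the antibody is added to isolated nuclei and recruits the Tn5 transposase, and the adapters it inserts mark the DNA near the bound protein. The COH library came from the retina of wild-type C57BL/6 mice 7 weeks old after 1 week of raised eye pressure, a model of glaucoma in which the axons of retinal ganglion cells are injured. The control library came from the untreated retina of wild-type C57BL/6 mice of the same 7 weeks. How many animals each library pooled, and how the pressure was raised, is not given in the sources used here, and with 1 library per condition no difference between COH and control could be tested. The intervals count peaks, pairs or genes and treat each as an independent draw, though all come from the same 2 libraries. They do not cover the spread between libraries. Amplified reads that carry no molecular identifier need not come from separate molecules, and the number of reads is unknown.

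Rac1 is a small GTPase best known at the cell membrane, where it turns on WAVE and PAK proteins and thereby actin branching. It has no known DNA-binding domain. A promoter is the stretch around a gene's transcription start site (TSS) where RNA polymerase II is loaded, and in mammals most promoters of broadly used genes lie in CpG islands, rich in G and C and open to transposases in many cell types. No library with a control antibody was analysed here, so reads drawn by the Rac1 antibody and reads from Tn5 cutting in open chromatin cannot be told apart.

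The genes behind the shared peaks numbered 490 in the COH list and 509 in the control list, of which 460 had such a peak in both. By symbol 437 of these 460 matched a gene in RefSeq, and 429 were protein-coding. That is 1.96% of the 21900 protein-coding genes in the table, the background for each gene list below. The sequences of 9 of their promoters follow, in the RefSeq coordinates of build GRCm38.p6. They were chosen to show what the letters of these windows look like: the clock genes Per1, Per3, Nr1d2 and Ciart, the stress kinases Mapk8 and Mapk9, the stress factor Atf4, and Kdm3a and Cd164 from among the strongest pairs. Each window runs from 250 bases before the RefSeq start to 50 after it, 5′ to 3′ on the gene's own strand.

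Capitals mark motif matches on either strand, namely the E-box CACGTG, the GC box GGGCGG, the CCAAT box CCAAT, the D-box TTANGTAA, and any of the other 7 motifs named with the composition of these windows. The windows are Per1 (chr11:69098699-69098998, plus strand), Per3 (chr4:151044616-151044915, minus strand), Nr1d2 (chr14:18239057-18239356, minus strand), Ciart (chr3:95882179-95882478, minus strand), Mapk8 (chr14:33447109-33447408, minus strand), Mapk9 (chr11:49846501-49846800, plus strand), Atf4 (chr15:80254934-80255233, plus strand), Kdm3a (chr6:71632868-71633167, minus strand) and Cd164 (chr10:41519250-41519549, plus strand).
Per1 promoter: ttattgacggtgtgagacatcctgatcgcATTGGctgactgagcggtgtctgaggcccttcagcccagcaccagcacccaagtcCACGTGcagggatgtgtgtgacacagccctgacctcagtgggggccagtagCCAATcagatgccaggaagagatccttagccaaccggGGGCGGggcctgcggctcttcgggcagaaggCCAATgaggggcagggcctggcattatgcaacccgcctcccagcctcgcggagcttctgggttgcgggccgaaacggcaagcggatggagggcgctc
Per3 promoter: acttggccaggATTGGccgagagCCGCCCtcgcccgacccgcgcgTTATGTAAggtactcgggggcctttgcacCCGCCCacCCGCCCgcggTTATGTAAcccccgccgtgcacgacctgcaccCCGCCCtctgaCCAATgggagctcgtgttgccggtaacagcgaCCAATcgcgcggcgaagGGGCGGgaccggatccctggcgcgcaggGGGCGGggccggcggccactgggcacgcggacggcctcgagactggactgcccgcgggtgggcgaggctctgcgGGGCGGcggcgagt
Nr1d2 promoter: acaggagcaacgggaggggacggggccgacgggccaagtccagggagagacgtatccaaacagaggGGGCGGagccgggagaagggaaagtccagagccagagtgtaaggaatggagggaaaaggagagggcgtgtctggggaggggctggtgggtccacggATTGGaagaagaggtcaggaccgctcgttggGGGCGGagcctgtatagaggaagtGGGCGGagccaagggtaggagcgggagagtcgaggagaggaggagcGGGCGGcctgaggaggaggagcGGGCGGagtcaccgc
Ciart promoter: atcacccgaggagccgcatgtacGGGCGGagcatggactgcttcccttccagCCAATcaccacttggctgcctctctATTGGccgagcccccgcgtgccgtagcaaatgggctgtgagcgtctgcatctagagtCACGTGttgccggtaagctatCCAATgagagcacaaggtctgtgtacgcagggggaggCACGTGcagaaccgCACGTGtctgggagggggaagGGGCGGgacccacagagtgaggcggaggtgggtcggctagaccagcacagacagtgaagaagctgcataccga
Mapk8 promoter: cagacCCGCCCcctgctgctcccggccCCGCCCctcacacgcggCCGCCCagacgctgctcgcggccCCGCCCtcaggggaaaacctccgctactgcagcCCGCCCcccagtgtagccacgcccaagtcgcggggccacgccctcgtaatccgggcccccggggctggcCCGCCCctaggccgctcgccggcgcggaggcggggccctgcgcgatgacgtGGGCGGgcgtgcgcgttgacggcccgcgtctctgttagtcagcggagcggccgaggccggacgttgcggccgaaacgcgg
Mapk9 promoter: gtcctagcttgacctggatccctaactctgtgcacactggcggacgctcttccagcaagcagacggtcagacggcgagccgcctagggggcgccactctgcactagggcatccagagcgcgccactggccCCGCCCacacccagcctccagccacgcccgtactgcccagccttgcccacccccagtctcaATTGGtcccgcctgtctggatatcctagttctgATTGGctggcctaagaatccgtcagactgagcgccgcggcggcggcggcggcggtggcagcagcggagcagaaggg
Atf4 promoter: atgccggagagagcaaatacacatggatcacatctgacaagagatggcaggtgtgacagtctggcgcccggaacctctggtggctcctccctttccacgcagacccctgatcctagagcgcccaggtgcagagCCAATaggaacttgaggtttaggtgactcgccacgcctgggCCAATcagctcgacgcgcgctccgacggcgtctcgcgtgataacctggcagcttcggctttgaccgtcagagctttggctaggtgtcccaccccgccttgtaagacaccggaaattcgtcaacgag
Kdm3a promoter: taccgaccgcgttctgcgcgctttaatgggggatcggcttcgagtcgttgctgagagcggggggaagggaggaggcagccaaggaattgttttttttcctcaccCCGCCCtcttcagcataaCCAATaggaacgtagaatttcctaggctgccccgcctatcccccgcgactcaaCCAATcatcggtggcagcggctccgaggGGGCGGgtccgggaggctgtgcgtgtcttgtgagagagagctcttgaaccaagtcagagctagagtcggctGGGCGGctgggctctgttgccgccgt
Cd164 promoter: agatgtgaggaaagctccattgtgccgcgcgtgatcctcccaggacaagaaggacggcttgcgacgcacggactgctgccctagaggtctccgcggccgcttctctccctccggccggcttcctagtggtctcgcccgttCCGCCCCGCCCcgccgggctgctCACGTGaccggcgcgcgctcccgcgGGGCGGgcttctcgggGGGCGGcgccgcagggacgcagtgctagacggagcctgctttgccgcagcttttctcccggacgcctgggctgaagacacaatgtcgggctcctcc

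The windows differ in their letters. Counted from 0 at the start base, with negative numbers upstream, Ciart has E-boxes at -116, -58 and -44, Per1 has one at -166 and Cd164 has one at -87. The E-box is the letter string that CLOCK and BMAL1 bind in the clock. Per3 has D-boxes, the letters read by DBP and its relatives, at -205 and -158, together with 7 GC boxes. The Mapk8 window holds 7 GC boxes and no other motif of the set, at a GC content of 77.7%, and the Atf4 window holds 2 CCAAT boxes and no GC box, at 59.0%. A match describes the letters and is no evidence of a bound site.

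Across all shared genes the promoter windows were rich in G and C. A window was found for 352 protein-coding genes with a shared peak, 142 with a promoter peak only in COH, 721 with one only in control, and 17492 protein-coding genes in all. A gene counted as COH-only or control-only, here and in the gene lists, had no shared promoter peak. It also had no peak of any annotation class in the other list. The median GC content was 68.7% in the shared genes (95% interval of the median 68.0 to 70.0), 64.3% in the COH-only genes (63.0 to 65.7) and 65.3% in the control-only genes, beside 56.3% over all protein-coding genes. The ratio of observed to expected CpG had medians of 0.851, 0.779, 0.844 and 0.577 in the same 4 sets. The shared windows therefore stood above the genes of either single list in GC content, and in CpG they differed little from the control-only genes. Genes are not replicates of a library, so these values carry no test.

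GC content was also compared within bins of peak strength. With the genes of the control list split into 3 bins of similar size by fold enrichment, the windows of shared genes had median GC contents of 68.7%, 69.5% and 67.7% from the lowest to the highest bin, against 66.3%, 65.3% and 65.0% in the genes without a shared peak. The medians of the shared genes were higher in each bin, though in the lowest bin the intervals of the medians overlapped (66.3 to 70.7 for shared genes, 65.0 to 67.7 for the others), and strength can still differ within a bin. A start of another gene on the opposite strand within 1000 bp upstream was present at 22.4% of the shared genes (18.2 to 27.2), 20.4% of the COH-only genes and 23.9% of the control-only genes, against 12.3% of all protein-coding genes. Head-to-head gene pairs of this kind were thus about as common in the 3 sets with peaks.

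The GC box, the letters read by SP and KLF zinc finger proteins, was in 87.5% of the shared windows, 77.5% of the COH-only and 78.5% of the control-only windows, and in 46.3% of all windows of the same length. The E-box was in 12.5%, 14.8%, 9.15% and 7.91% of them in that order. The CCAAT box, read by the NFY complex, was in 42.3%, 37.3%, 45.4% and 39.2%, and the ETS motif CCGGAAG in 13.6%, 14.1%, 17.5% and 11.9%. The TATA box TATAAA ran the other way, at 4.26%, 7.04%, 3.19% and 13.3%, and so did the heat shock motif GAANNTTC, at 3.13%, 4.23%, 3.05% and 7.35%. Within the 3 bins of control fold, from lowest to highest, the GC box was in 80.5%, 85.0% and 86.1% of the shared windows. In the genes without a shared peak it was in 78.6%, 75.6% and 82.5%, with overlapping intervals in each bin. The E-box was in 14.6%, 13.3% and 11.8% of the shared windows, against 8.16%, 7.87% and 12.2% of the others.

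The remaining motifs were rare. The NRF1 motif GCGCATGC was in 5.97% of the shared windows and 3.61% of all, the YY1 motif AAGATGGC in 3.41% and 3.21%, and the cyclic AMP response element TGACGTCA in 2.56% and 2.33%. The ATF4-like element TGACGCAA was in 1.99% of the shared windows (7 genes) and 0.675% of all. The D-box was in 0.852% of the shared windows (3 genes) and 2.26% of all. No motif of the set contains the letters of another, though GC boxes can overlap each other, as in the Cd164 window. The shares were not adjusted for base composition.

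**Figure D1:**
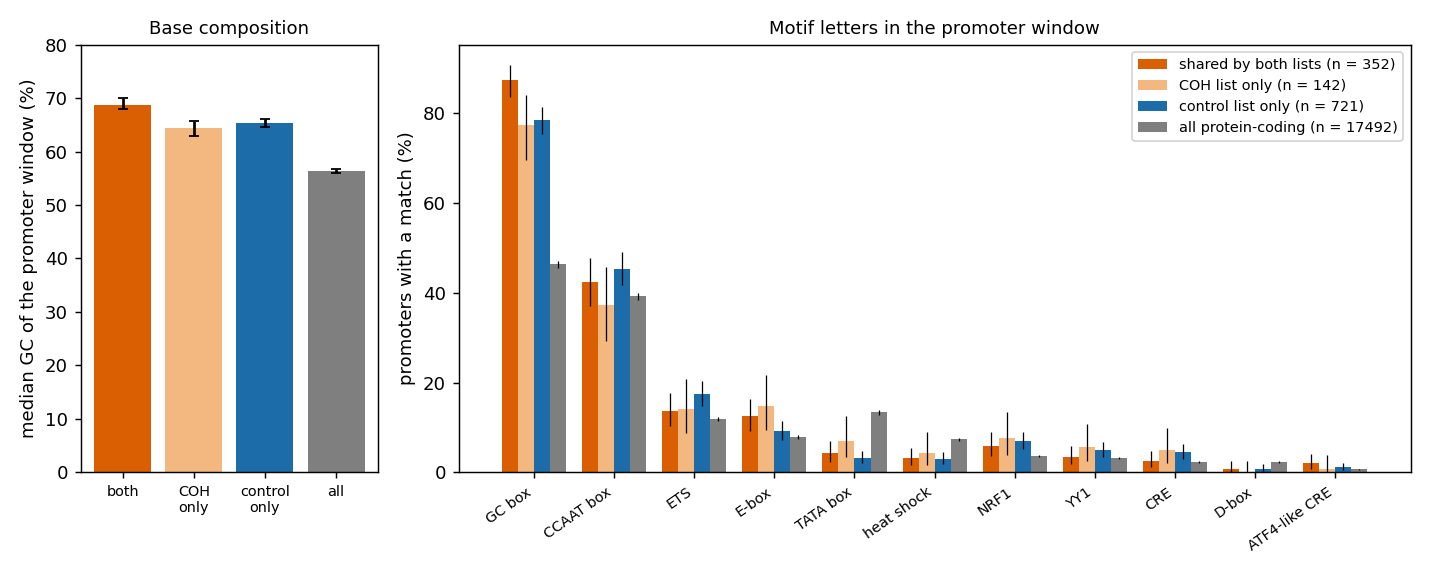
Median GC content (left) and share of promoters with a match to each of 11 motifs (right) in RefSeq windows of 300 bases, for genes with a shared promoter peak, genes with one in COH only or control only, and all protein-coding genes. Bars on the columns are 95% intervals. The shared genes are highest in GC content (68.7%) and in the share with a GC box (87.5%), and all 3 sets with peaks are below all genes for the TATA box and the heat shock motif.

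The shared peaks sat close to the TSS in both retinas. The summit, the base of highest signal, lay at a median of 88 bp upstream of the TSS in COH (position -88) and 76 bp upstream in control (-76), in the authors' own annotation. Promoter peaks found in a single retina had medians of -56 in COH and -17 in control. The summit was upstream in 63.3% of the shared peaks of COH (58.9 to 67.6) and 58.6% of those of control (54.2 to 62.9), against 57.1% of the COH-only and 52.3% of the control-only promoter peaks (49.0 to 55.5). Within 500 bp on either side lay 91.0% of the shared COH summits and 90.6% of the shared control summits. For the COH-only and control-only promoter peaks these shares were 92.1% and 95.5%. The peak itself covered the TSS in 75.2% of the shared peaks in COH and 81.2% in control, against 75.9% and 84.8% of the unshared. By these measures the shared peaks were no closer to the TSS than other promoter peaks, and the promoter annotation itself selects peaks near a TSS.

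**Figure D2:**
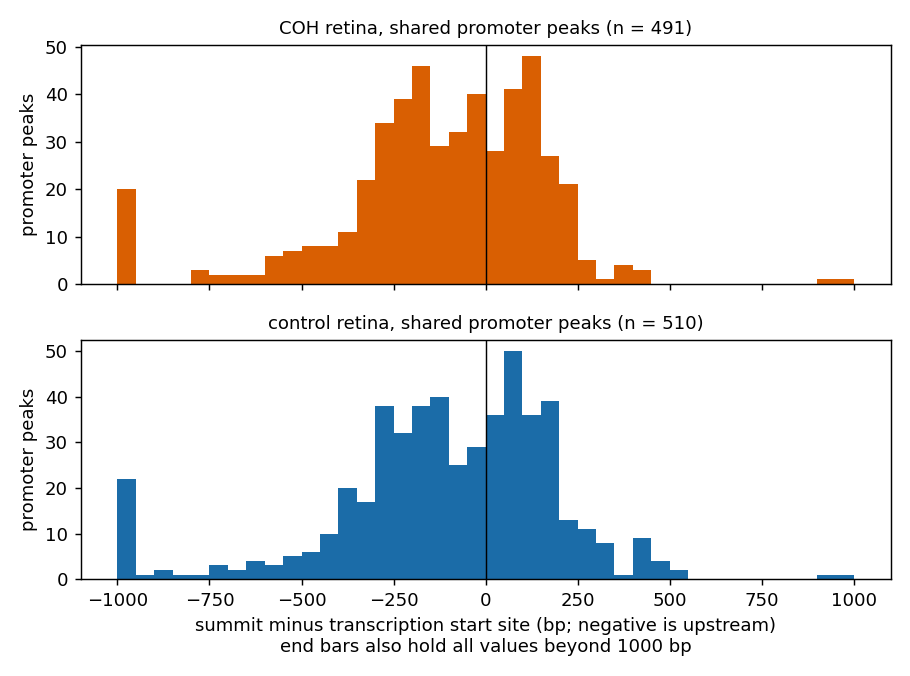
Distance from the annotated TSS to the summit (bp, negative is upstream) for the 491 shared promoter peaks of COH retina (upper panel) and the 510 of control retina (lower panel), in bars of 50 bp whose ends also hold all values beyond 1000 bp. Both distributions have most summits within 500 bp of the TSS, with peaks of similar height on both sides of it and a longer upstream tail.

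Paired peaks overlapped by a median of 391 bp (quartiles 313 to 521, range 3 to 2621). Their summits were a median of 109 bp apart. They lay within 50 bp of each other in 27.4% of the 532 pairs, within 100 bp in 47.2% and within 200 bp in 75.8%. The COH peak was the shorter one as a rule, with a median length of 459.5 bp, against 589 bp for its control partner. It lay wholly inside the control peak in 209 pairs (39.3%), and the control peak lay inside the COH peak in 60 (11.3%). In the Mapk8 pair the summits were 1 bp apart, and in the Per3 pair they were at the same base. In the Nr1d2 pair they were 530 bp apart and in the Bhlhe40 pair 741 bp.

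The overlap covered at least 50% of both peaks in 418 of the 532 pairs. The smallest overlaps were 3 bp at Bhlhb9, 8 bp at Mybl1 and 12 bp at Laptm4a. Just outside the rule, COH promoter peaks of Krcc1 and 2510009E07Rik missed a control peak by 7 and 79 bp, and a COH peak of Gpr137c lay 88 bp from a control peak assigned to Txndc16. Of the COH-only promoter peaks 13 of 203 had a control peak within 1000 bp (6.40%), and of the control-only promoter peaks 7 of 935 had a COH peak that near (0.749%).

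Both members of a pair were annotated to a promoter in 471 of the 532 pairs. In 33 pairs the COH peak was annotated to a 5′ untranslated region and the control peak to a promoter, and in 19 the COH peak was the promoter one and the control peak the 5′ untranslated one. The gene assigned was the same in 519 pairs and differed in 13. One of these 13 joined a COH peak assigned to Wasf1, which encodes the WAVE1 protein downstream of Rac1, with a control peak assigned to the RNA splicing factor gene Cdc40. Their folds were 5.87 in COH and 7.25 in control, at summits 53 bp apart. The others included Ddx42 in COH with Ccdc47 in control, Ppp1r10 with Mrps18b, and Hmgb1 with Uspl1. Such a pair counts as shared by position, though neither gene is named in both lists on its account. The Skil gene, which restrains TGF-beta signalling, had 1 COH peak that covered 2 control peaks.

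Strength went with sharing. The fold enrichment, the authors' ratio of signal to background at the summit, had a median of 5.69 in the shared COH peaks and 5.73 in the shared control peaks, against 4.99 in the COH-only and 5.05 in the control-only promoter peaks. The pileup, their height of stacked fragments in a unit whose scaling is not stated, had medians of 18 in shared COH peaks and 24 in shared control peaks, against 15 and 17 in the unshared. The share of promoter peaks that were shared was 57.1%, 68.7% and 86.6% over 3 bins of rising fold in COH, and 23.7%, 31.0% and 51.2% in control. Overlap of called peaks chose the members, so this order is a description of them.

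The pairs fell into 3 kinds. By far the most, 515, were nuclear with a pileup of at most 100 in both lists. In these the pileup was lower in COH in 388, equal in 34 and higher in COH in 93, with a median ratio of COH to control of 0.824. That share lower in COH, 75.3%, stands beside 69.9% for all 1001 overlapping nuclear pairs of that height, promoter or not. The 1001 pairs include these 515, so the comparison is partly of the pairs with themselves. The fold showed no such lean, being higher in COH in 256 and lower in 259, with a median ratio of 0.998. Over these 515 pairs, which differ in genes but share the same 2 libraries, Spearman's rank correlation between COH and control was 0.412 for fold, 0.628 for pileup and 0.331 for peak length. Of the 129 pairs with the highest COH fold, 58 were also among the 129 with the highest control fold.

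**Figure D3:**
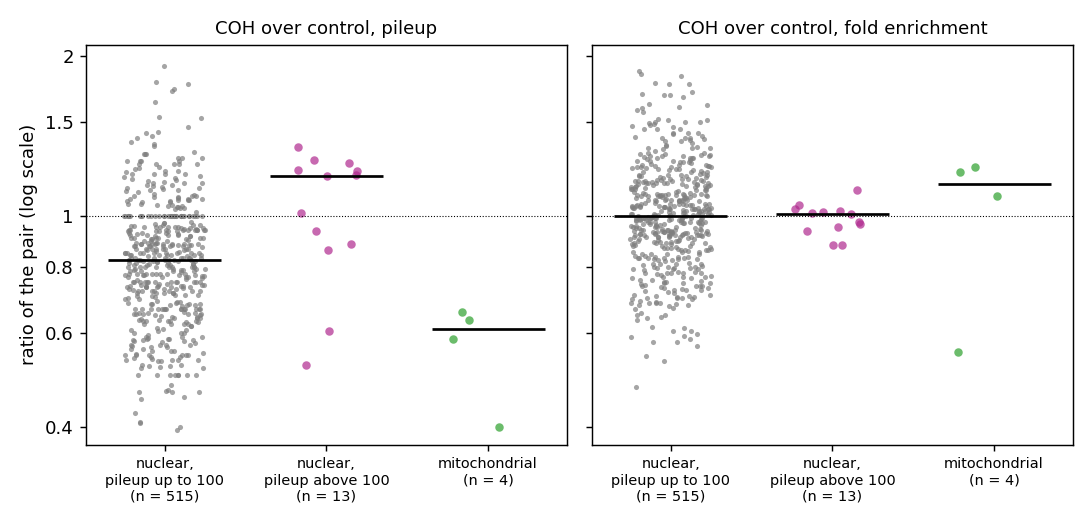
Ratio of COH to control in each of the 532 pairs, for pileup (left) and fold enrichment (right) on log axes, with the pairs grouped by kind and a black line at each median. Pileup ratios of the 515 ordinary nuclear pairs centre on 0.824 and their fold ratios on 0.998, while the 4 mitochondrial pairs all have a pileup lower in COH.

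Another 13 nuclear pairs had a pileup above 100 in at least one list. The tallest was at the predicted gene Gm10800 on chromosome 2, with a pileup of 10640 in COH and 8774 in control and folds of 21.2 and 21.1. Another 8 lay on chromosome 9. Of these, 7 were close together near its start, among them Gm10717 (2868 in COH, 2287 in control) and Gm17535 (1266 and 1066), and Gm21836 (2764 and 3205) lay far from them. The pileup ratios of the 13 pairs had a median of 1.19, above the 0.824 of the ordinary pairs, while the fold ratios stayed between 0.878 and 1.12. Gm28439 and Gm10925 on chromosome 1 had pileups of 135 and 152 in COH against 258 and 251 in control. Predicted genes of this kind often lie in repeated sequence, and how reads from repeats were placed was not tested.

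The mitochondrial genome gave 4 pairs, at mt-Nd1 (2 pairs), at mt-Cytb and between a COH peak assigned to mt-Nd5 and the same control peak of mt-Cytb. At the mt-Nd1 pairs the pileups were 298 and 216 in COH, against 469 and 369 in control, and at mt-Cytb 429 in COH against 652 in control. Each of the 4 was lower in COH by pileup, with ratios of 0.399 to 0.658. The folds were lower in COH only for the pair with mt-Nd5, at 1.87 against 3.38. The circular genome is small and transcribed from few start sites, so a promoter in the annotation here is a label of the annotation tool.

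Among ordinary nuclear pairs of genes with a full symbol, those strongest in both retinas had varied roles. The first by summed rank of fold was Chchd7, a gene of a small mitochondrial protein, with a fold of 10.7 in COH and 9.83 in control and pileups of 44 and 50. Aco1, an iron-sensing aconitase, had folds of 9.62 in COH and 8.31 in control. The small GTPase gene Rap2a, a relative of Ras, had 9.51 in COH and 8.35 in control at pileups of 53 and 60. Kdm3a, a histone H3K9 demethylase, had 8.19 and 9.21.

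Further down the same order stood Rps23, a protein of the small ribosomal subunit, with 8.31 in COH and 8.93 in control. The splicing-linked factor gene Bclaf1 had 8.78 and 8.60, and the sialomucin gene Cd164 had 9.45 and 8.13. Each of these genes was within 1.5-fold between COH and control. Of the predicted genes with a pileup of at most 100, Gm21962 stood highest, at a fold of 15.1 in COH and 15.0 in control with summits 12 bp apart, and Gm49273 was the most unequal of the strong pairs, at 9.90 in COH and 13.8 in control.

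**Figure D4:**
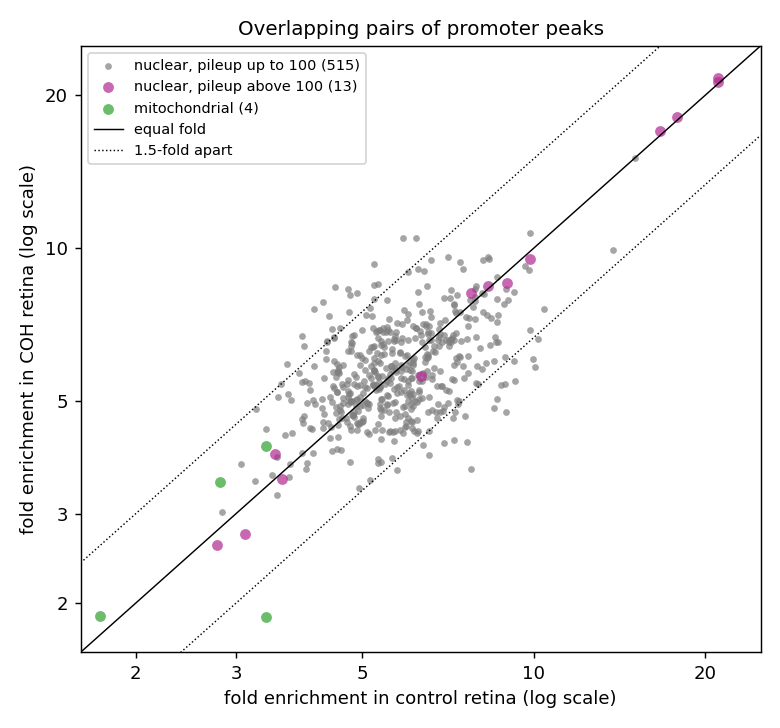
Fold enrichment in COH (vertical) against control (horizontal) for the 532 pairs, both on log axes, with colours for the 3 kinds of pair. The solid line marks equal fold and the dotted lines a 1.5-fold difference, which 23 pairs pass in favour of COH and 21 in favour of control.

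Fold at least 1.5 times higher in COH was seen in 23 of the 532 pairs (4.32%), near the 3.49% of all 1060 overlapping pairs in the lists. The 1060 pairs include these 532. Fold at least 1.5 times higher in control was seen in 21 (3.95%), near the corresponding 4.06%. Among the 5 highest ratios was Anapc13, a subunit of the anaphase-promoting complex, with a fold of 7.59 in COH and 4.11 in control at pileups of 23 and 17. Fam234a had 7.84 and 4.27 at pileups of 23 and 13. Gdf9, an oocyte growth factor gene, had 10.4 in COH and 5.89 in control, and the zinc finger factor gene Maz had 9.28 and 5.24 at pileups of 71 and 41.

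At the other end, Pabpc1, the cytoplasmic poly(A)-binding protein, had a fold of 3.68 in COH and 7.74 in control, at pileups of 13 and 32. Taok1, a kinase upstream of stress-activated MAP kinases, had 4.75 and 8.94. Fam160a2 had 4.15 and 7.62, and Lta4h, a leukotriene-forming hydrolase, had 4.84 and 8.51. Most of these rest on pileups between 13 and 41, and without replicate libraries the spread of such a ratio between retinas is not known.

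Of 43 gene lists, 11 hold markers of retinal cell types and 32 hold pathways and gene families. The lists were chosen with earlier results of these data known, so their shares and order are a description and no test. The core clock had the highest share among the lists of at least 25 genes, with a shared promoter peak at 7 of 25 genes (28.0%, 12.1 to 49.4), against the background of 1.96%. The mammalian clock is a feedback loop in which CLOCK and BMAL1 switch on the Per and Cry repressors and the REV-ERB and PAR bZIP output genes. Nr1d2, which encodes REV-ERB beta, had the tallest of the clock peaks, with pileups of 60 in COH and 59 in control and folds of 7.87 and 7.89. These were read at different places, with the summit at position 394 from the TSS in COH and -136 in control. The repressor genes Per1, Per2 and Per3 had folds of 5.11, 3.75 and 6.83 in COH, against 5.54, 3.74 and 5.27 in control. Dbp, an output factor that reads the D-box, had 3.75 in COH and 3.06 in control.

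The remaining clock members were Bhlhe40, a repressor that competes at E-boxes, with folds of 6.96 in COH and 5.22 in control, and Ciart, a repressor of CLOCK and BMAL1, with 4.91 and 5.01. All 7 ratios were within 1.5-fold, and the fold was higher in COH at 4 of the 7. Their median fold was 5.11 in COH and 5.22 in control, below the 5.69 and 5.73 of all shared peaks. Cry1 and Cry2 were among 3 clock genes with a promoter peak in control only, and no clock gene had one in COH only. The time of day of the collections is not given in the sources used here. In the authors' coordinates, whose build is not settled, the COH peak of Per1 is at chr11:68985563-68986014 and that of Nr1d2 at chr14:4230256-4231348. These are not to be set against the GRCm38.p6 windows above.

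Of the histone methylation and Polycomb list, 9 of 65 genes were shared (13.8%). They were Kmt2c, Kmt2d, Kmt2e, Ash1l, Setd2 and Setd5, of the SET-domain family that holds most lysine methyltransferases, and the demethylase genes Kdm1b, Kdm3a and Kdm4b. Kmt2e had folds of 7.90 in COH and 5.53 in control, Kdm1b 7.11 and 6.85, and Setd2 5.09 and 4.38. Fold was higher in COH at 7 of the 9, with medians of 6.55 in COH and 5.50 in control. Over the ordinary pairs it was higher in COH in 256 of 515. The pileup of the 9 pairs leaned the other way, with medians of 20 in COH and 25 in control. It was higher in COH at 4 of the 9. Ash1l passed 1.5-fold, at a fold of 6.55 in COH against 4.33 in control. Another 7 genes of the list had a promoter peak in control only, among them Kmt2a and Eed, and none had one in COH only.

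Of the histone acetylation and chromatin remodelling list, 8 of 79 genes were shared (10.1%). They included both of the coactivator acetyltransferases, Ep300 with folds of 6.40 in COH and 6.81 in control and Crebbp with 6.70 and 5.71. Brd2, a reader of acetylated histones, had 5.48 in COH and 5.04 in control at pileups of 38 and 42. The MOZ complex genes Kat6a, Brpf1 and Brpf3 were all shared, as was Smarca4, the BRG1 motor of the SWI/SNF complex, with 5.94 in COH and 6.13 in control.

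The axon injury and regeneration list had 9 of 69 genes (13.0%). Mapk8 and Mapk9 encode the stress kinases JNK1 and JNK2. Mapk8 had folds of 6.59 in COH and 6.78 in control at pileups of 22 and 25, and Mapk9 had 4.97 and 6.24 at pileups of 18 and 24. Atf4, the transcription factor of the integrated stress response, had 6.26 in COH and 4.73 in control. Stat3, a transducer of cytokine signals tied to axon regrowth, had 5.93 and 5.38 at a pileup of 18 in both. Creb1, Gsk3b, Igf1r and Ppp3ca were also members, all within 1.5-fold. Ddit3, Rtn4 and Mtor were among 7 genes with a promoter peak in control only, and Jak2 and Klf7 had one in COH only.

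The list of Rac1 and related GTPase signalling had 5 of 90 genes (5.56%). Arhgap35, the p190 GAP that turns small GTPases off, was strongest, with folds of 7.74 in COH and 7.24 in control and summits 4 bp apart. Wasl, the N-WASP activator of actin branching, had 4.13 in COH and 6.95 in control, and Dock9, an exchange factor for Cdc42, had 3.85 and 5.63. Rhoq, a relative of Cdc42, had 4.94 and 5.13, and the formin gene Diaph1 had 4.94 and 5.37. Fold was higher in control at 4 of the 5 and pileup at all 5, which stands beside the lower COH pileup in 75.3% of the ordinary pairs. Pak1, Rhoa and Limk1 were among 8 genes with a promoter peak in control only, and Elmo2 and Rock1 had one in COH only. Rac1 had no promoter peak in either list. Kif2a, the microtubule depolymerase named in the title of the study, had one in control only.

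The families of the ubiquitin system differed in their shares. The deubiquitinase (Usp) family had 8 of 56 (14.3%), led by Usp32 with folds of 7.97 in COH and 7.12 in control and Usp9x with 7.74 and 7.23. The conjugase (Ube2) family had 5 of 37 (13.5%), including Ube2d3 with 6.59 in both retinas and Ube2b with 6.43 in COH and 8.38 in control. The ring finger (Rnf) ligases had 4 of 83 (4.82%, 1.33 to 11.9). The proteasome genes had 1 of 48 (2.08%), Psme3, and the F-box genes 1 of 78 (1.28%), Fbxw7, with 7 more F-box genes in control only. Both stand near the background of 1.96%.

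The transcription and RNA lists were in between. Of 51 genes for Mediator, transcription elongation and cell cycle control, 5 were shared (9.80%). Polr2a, the large subunit of RNA polymerase II, had folds of 8.46 in COH and 5.24 in control, and Ccnl1 had 7.48 and 4.74, both past 1.5-fold, while Cdk4 had 6.81 and 7.29. The splicing list had 7 of 104 (6.73%), among them Rbm39, an RNA-binding splicing factor, with 6.03 in COH and 6.13 in control. The chaperone list had 5 of 68 (7.35%), among them Hspa8, the constitutive HSP70, with 6.17 and 6.52 and Dnajb1, its stress-induced partner, with 5.54 and 6.10.

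**Figure D5:**
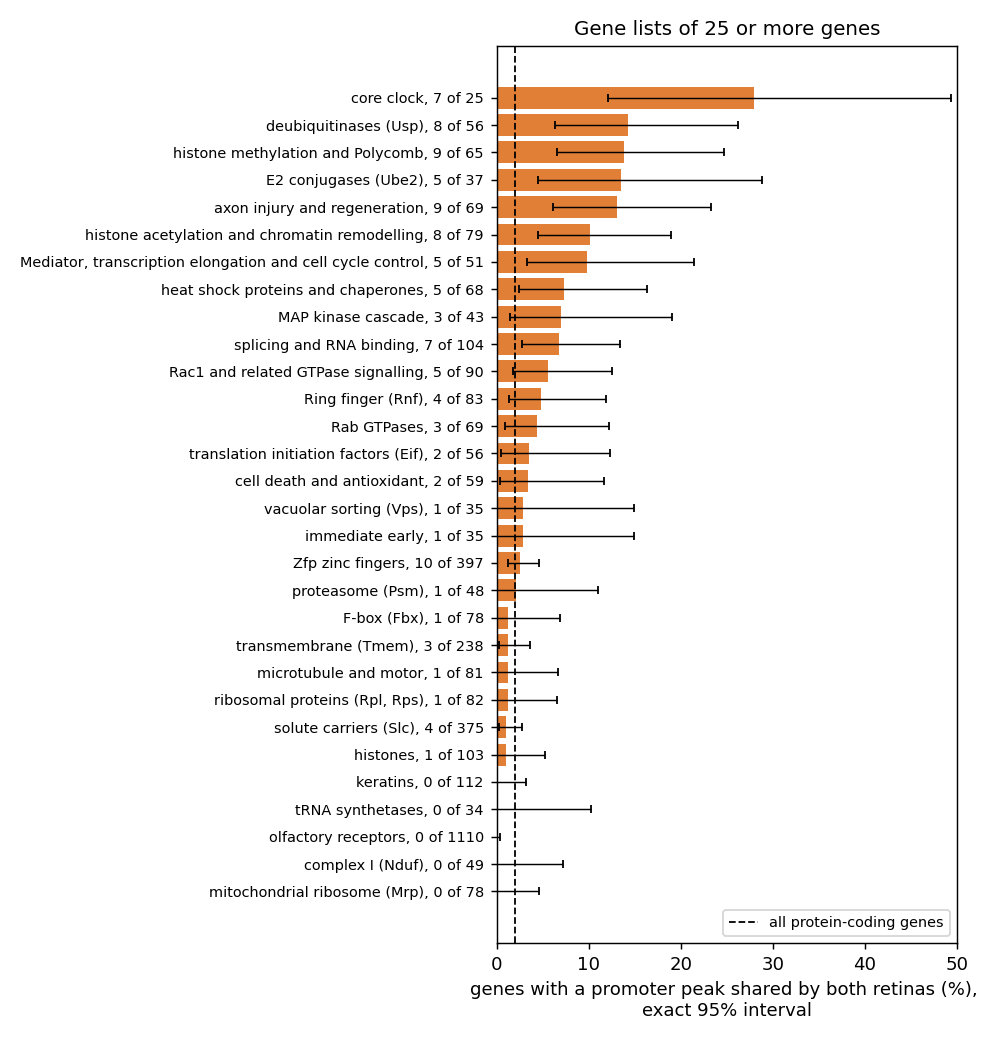
Share of the genes of each list with a promoter peak shared by both retinas (%), with the exact 95% interval, for the lists of at least 25 genes; the dashed line is the 1.96% of all protein-coding genes. Clock genes are highest at 28.0%, followed by the Usp family, histone methylation, the Ube2 family and axon injury at 13.0 to 14.3%, while keratins, olfactory receptors and complex I have no member.

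Other large families had shares near or under the background. The Zfp zinc fingers had 10 of 397 (2.52%), the solute carriers 4 of 375 (1.07%), the Tmem genes 3 of 238 and the ribosomal protein genes 1 of 82, Rps23. Immediate early genes had 1 of 35, Jund, with folds of 4.44 in COH and 4.41 in control. The microtubule and motor list had 1 of 81, Camsap1, and the cell death list 2 of 59, the apoptosome genes Apaf1 and Cycs. The olfactory receptors (0 of 1110), keratins (0 of 112), complex I genes (0 of 49) and mitochondrial ribosome genes (0 of 78) had none. The absence of a peak says that none passed the caller's threshold and does not show that the region was unbound.

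Of 129 marker genes of retinal cell types in 11 lists, 1 had a shared promoter peak, a share too small in number to set apart from the 1.96% of all protein-coding genes. It was Reep6, a rod gene, with a fold of 5.10 in COH and 3.56 in control. The lists for cones, bipolar, ganglion, amacrine and horizontal cells, Müller glia, astrocytes, microglia, vessels and pigment epithelium had 0 shared members, and the Müller glia genes Car2 and Glul had a promoter peak in control only. The defining rod markers Gnat1 and Nrl were without a promoter peak in either list. The shared promoters thus give little with which to check the tissue of the label. In whole retina a change in cell makeup and a change per cell cannot be told apart.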

How the data were processed

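Per the labels' protocols, retinal nuclei were profiled by CUT&Tag with a Rac1 antibody and 15 PCR cycles. The submitters' processing notes name cutadapt 1.9.1, Bowtie2 and the build mm9. Gene starts in the lists differ from GRCm38.p6 and the build is not settled. Not given in the sources used here are the peak caller, its background and the handling of duplicates. Peaks were called per library, as each has its own list. The deposited pileup is a signal of unstated scaling, and the fold enrichment is the authors' ratio over background. The deposited −log10 p and −log10 q columns had headings with a spreadsheet error and were read from their place and values. Positions, lengths, annotation classes and genes are the authors', per the file headers. The listed length was the end minus the start plus 2 in every peak.

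Overlaps, shares and medians were computed in Python 3.11.15 with pandas 2.3.3, numpy 2.4.6 and scipy 1.17.1, with figures in matplotlib 3.10.9. Shares have exact Clopper-Pearson intervals at 95%, and medians binomial intervals from order statistics. The overlap step was tested on simulated data and recovered the planted pairs. Symbols were matched to RefSeq (GRCm38.p6), whose promoter windows give 1 start per gene, the one farthest 5′; these sequences are RefSeq's. With 1 library each, no test was made.

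The members and gene lists were chosen with earlier results of these data known. Genes were named by rank sum of fold and of pileup over both lists (10 each), by the 5 highest and 5 lowest fold ratios, the smallest overlaps and nearest misses (3 each), several peaks in one gene, peaks assigned to different genes, and up to 6 members per gene list; other names complete counts and were chosen after their values were seen. Some genes that this rule names are not reported here. The ranking without predicted genes and tall pileups was also added after the values were seen. Alternatives were a −log10 q minimum of 5, a reciprocal overlap of 50%, a promoter partner, and others whose effect the closing section gives.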

Additional observations from a re-analysis of the deposited data

How the results depend on the processing

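Each of 8 values (the 2 counts and shares of shared promoter peaks, the genes shared by both lists, the 2 median folds and the share of pairs with a higher COH pileup) was recomputed under 7 alternatives, and 49 of the 56 recomputed values stayed within their limits (1.5 times a count, the 95% interval of a share or median). The 7 that moved were these. With only peaks of −log10 q of at least 5 in both lists, 322 COH and 334 control promoter peaks were shared and their median folds were 6.23 and 6.13, fewer peaks entering by construction. With an overlap of at least 50% of both peaks, 56.9% of the COH and 28.1% of the control promoter peaks were shared. With the partner required to be a promoter peak too, 32.6% of the control promoter peaks were shared. Leaving out clustered peaks, mitochondrial and other chromosomes, peaks beyond 1000 bp of the TSS or, added after the data were seen, pileups above 100 moved none of the 8 past these limits.

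No paired analysis was possible because each condition has 1 library. The lists hold only called peaks, so shared signal below the calling threshold is not counted, and the longer control list gives a COH peak more partners to overlap than the COH list gives a control peak. The difference between the shares of the lists was not tested. Read depth, the spread between retinas and signal from a control antibody are unknown here.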

Other observations

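By chromosome, the share of COH promoter peaks that were shared was lowest on X (4 of 10) and highest on chromosome 13 (19 of 21) among the nuclear chromosomes with any, and in control it was lowest on X (4 of 18) and highest on chromosome 1 (49 of 105). Both chromosomes were singled out after their values were seen.

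Of the 23 pairs with a fold at least 1.5 times higher in COH, several more belong to regulators, named here after their values were seen. Ctcf, the insulator protein, had a fold of 7.94 in COH and 5.25 in control. Gsk3a, a kinase of the insulin and Wnt pathways, had 7.36 and 4.36, and Ddit4, an inhibitor of mTORC1 that stress induces, had 5.90 and 3.68. Fto, an RNA demethylase gene, had 8.17 and 4.89, and Pip4k2b, a phosphoinositide kinase gene, had 10.5 and 6.20. Among the 21 pairs higher in control, Acat2, a cholesterol-pathway thiolase, had a fold of 5.83 in COH and 10.1 in control. Cnot9, a subunit of the CCR4-NOT deadenylase, had 5.04 and 8.63, and H3f3a, a gene of the replacement histone H3.3, had 3.91 and 6.54. The 3′ end factor gene Pcf11 had 4.64 in COH and 7.20 in control. The shares of such pairs were near those of all overlapping pairs, and no ratio was tested.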
